A study of Homo sapiens with 6 samples.

Results

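The genes described here are those of the hypoxia response outside glycolysis. They comprise the subunits of the hypoxia-inducible factors (HIF), the hydroxylases that sense oxygen and control them, and HIF target genes other than glycolytic enzymes. They were chosen by name from a list of 36 genes, and every probe set annotated to exactly 1 of these symbols was taken. In this way 35 of the 19775 genes measured and 108 of the 54613 probe sets tested were included, and CA9 was not analysed here. The study compared PC9, a gefitinib-sensitive lung adenocarcinoma cell line, with PC9/gef, its gefitinib-resistant derivative, to look for regulators of resistance to this inhibitor of the epidermal growth factor receptor. PC9/gef was derived from PC9 by continuous culture under rising gefitinib concentrations. Total RNA of 3 samples per line was hybridized to Affymetrix oligonucleotide arrays, 1 array per sample, and the 3 samples of each line are labelled as biological replicates. Both lines were grown in the same serum-supplemented RPMI-1640 medium with antibiotics in a humidified CO2 atmosphere, and no low-oxygen treatment is named. The labels do not say whether gefitinib was in the medium at harvest or whether PC9/gef is 1 clone, so that the effect of the drug and of the selection cannot be told apart.

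HIF is a dimer of an oxygen-sensitive alpha subunit, such as HIF1A or EPAS1, and the constitutive beta subunit ARNT. When oxygen is present, the EGLN prolyl hydroxylases mark the alpha subunit for degradation through the VHL ubiquitin ligase, and the asparaginyl hydroxylase HIF1AN blocks its contact with coactivators. This control acts on the protein, which arrays do not measure, while the mRNA of the target genes, among them EGLN3 itself, is what a hypoxic cell usually raises.

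HIF binds DNA at the short core sequence ACGTG or GCGTG, so the promoters of 5 of the 7 genes that were called with a change over 1.5-fold are shown first. RefSeq promoters (build GRCh38.p14) were matched by symbol for 27 of the 35 genes, and the 250 bases before each transcription start were searched on both strands for these letters. The palindrome CACGTG counts once on each strand and is also the recognition sequence of other factors. Of the 38 starts of these 27 genes, 28 held at least 1 match (73.7%), against 43.2% of the 35116 promoters in the table. Windows of 1 gene can overlap and share a match, as in LOX and KDM3A, so the starts are not independent. The difference between these percentages was not tested. Of the genes with a promoter, 6 of 8 whose mRNA rose in PC9/gef held a match, and 6 of 7 whose mRNA fell. So did 7 of 8 that did not pass the test and 3 of 4 at background level. Genes of both directions and of neither thus carried these letters. Below are PDK3 (chrX:24465036-24465285, plus strand), which rose most, and DDIT4 (chr10:72273674-72273923, plus strand), ANKRD37 (chr4:185396591-185396840, plus strand), P4HA1 (chr10:73096867-73097116, minus strand) and EGLN3 (chr14:33951075-33951324, minus strand), which fell, each from 5′ to 3′ up to the base before the start, with every match on either strand in capitals.
PDK3: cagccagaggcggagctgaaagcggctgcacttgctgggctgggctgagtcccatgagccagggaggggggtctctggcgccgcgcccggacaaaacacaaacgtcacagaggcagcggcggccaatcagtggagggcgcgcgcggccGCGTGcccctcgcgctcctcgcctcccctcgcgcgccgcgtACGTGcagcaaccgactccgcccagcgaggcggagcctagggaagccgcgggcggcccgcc
DDIT4: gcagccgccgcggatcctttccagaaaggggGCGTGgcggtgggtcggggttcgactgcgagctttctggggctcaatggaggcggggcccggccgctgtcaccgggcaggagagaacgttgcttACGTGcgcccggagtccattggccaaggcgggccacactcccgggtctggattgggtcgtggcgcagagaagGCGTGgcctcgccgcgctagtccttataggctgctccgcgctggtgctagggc
ANKRD37: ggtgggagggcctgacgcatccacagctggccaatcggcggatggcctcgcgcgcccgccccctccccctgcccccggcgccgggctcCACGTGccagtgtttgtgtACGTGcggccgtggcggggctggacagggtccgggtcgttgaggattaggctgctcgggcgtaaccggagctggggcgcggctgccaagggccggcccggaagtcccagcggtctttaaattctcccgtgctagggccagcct
P4HA1: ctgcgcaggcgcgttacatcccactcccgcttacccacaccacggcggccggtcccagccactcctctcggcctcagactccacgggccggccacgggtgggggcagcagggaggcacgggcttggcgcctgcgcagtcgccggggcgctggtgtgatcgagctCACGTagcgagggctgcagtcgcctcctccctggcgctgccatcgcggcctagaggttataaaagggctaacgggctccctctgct
EGLN3: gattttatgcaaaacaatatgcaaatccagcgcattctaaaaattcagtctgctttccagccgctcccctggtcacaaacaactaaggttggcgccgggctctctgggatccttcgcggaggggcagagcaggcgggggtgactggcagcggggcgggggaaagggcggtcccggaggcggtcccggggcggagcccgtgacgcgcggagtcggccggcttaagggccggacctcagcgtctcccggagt
PDK3 held 2 matches, beginning 61 and 102 bases before its start. DDIT4 held 3, at 53, 125 and 219 bases. In ANKRD37, the CACGTG palindrome lay 162 bases before the start, and a further ACGTG began at 143 bases. P4HA1 held 1 match on the opposite strand, and EGLN3 none. Of the genes not shown, CA12 held 1 match, and FAM13A has 2 starts in the table, with 2 matches at one and 0 at the other. A match is a description of these letters, and their absence from this window says nothing about binding of HIF.

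Of the 35 genes, 10 were higher and 10 were lower in PC9/gef, 11 did not pass the test, and 4 were at background level in both lines. Each gene was represented by the brightest of its probe sets, on average over the 6 arrays, and was called when its limma p, adjusted over all genes by Benjamini-Hochberg, was below 0.05 and its mean in at least 1 line was above 2.61, the level under which 95% of olfactory receptor probe sets lay. The same rule called 27.9% of all genes measured, 14.4% higher and 13.4% lower. Among genes whose mean over the arrays was above background, it called 20 of the 31 listed genes (64.5%) and 45.6% of all genes. The median log2 change of the 35 genes was 0.037, with an absolute median of 0.31, against -0.00065 and 0.055 over all genes. Of all 19775 genes, however, 7590 were at background level in both lines, where values hardly move, which lowers the absolute median. These medians therefore do not compare like with like, and a median over expressed genes alone was not taken.

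**Figure D1:**
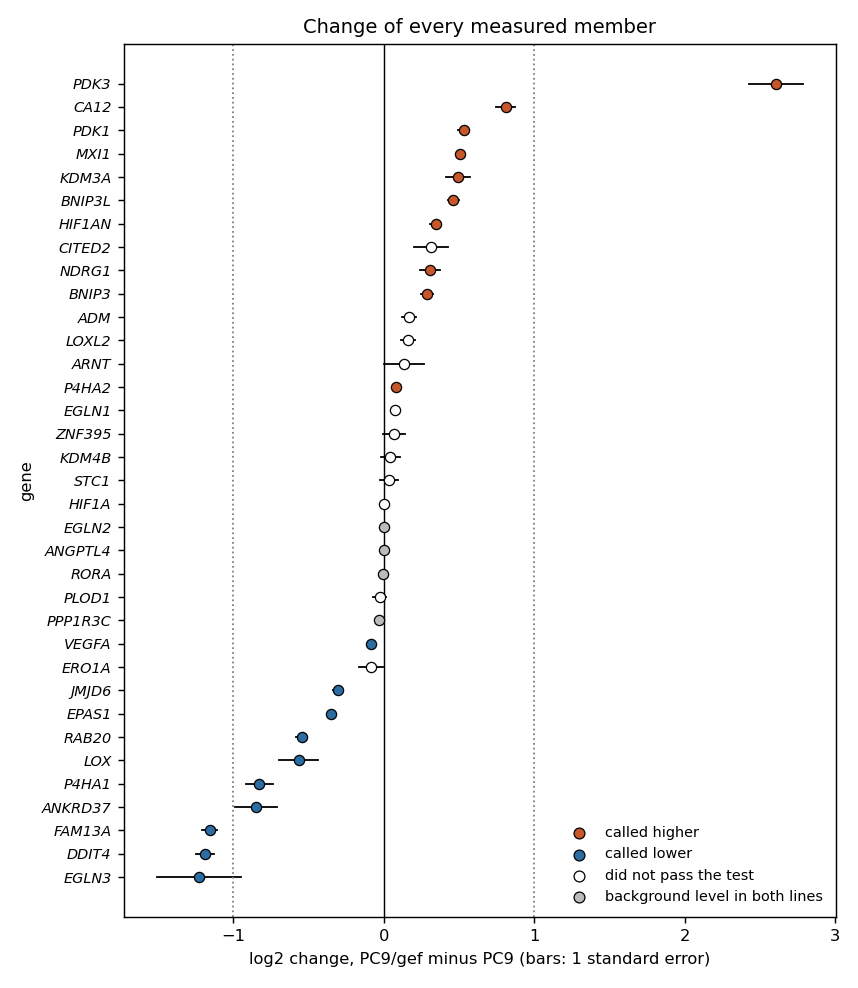
Log2 change (PC9/gef minus PC9, x axis) of each of the 35 genes (y axis, sorted), with bars of 1 standard error from 3 arrays per line and dotted lines at 2-fold. PDK3 lies alone at 2.61, DDIT4, FAM13A and EGLN3 lie below -1, and filled circles of both colours show the 10 genes called in each direction.

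Of the HIF subunits, EPAS1 fell, while HIF1A and ARNT did not pass the test. HIF1A read 13.02, 13.07 and 13.07 on the log2 scale on the PC9 arrays and 13.06, 13.04 and 13.06 on the PC9/gef arrays. The lines overlapped, with a mean of 13.05 in each and a 95% confidence interval of the difference from -0.05 to 0.05. EPAS1, the second alpha subunit, read 12.57, 12.60 and 12.59 in PC9 and 12.27, 12.22 and 12.20 in PC9/gef. All PC9 arrays lay above all PC9/gef arrays, and the mRNA fell 1.28-fold in PC9/gef (log2 change -0.35, SE 0.0221, n = 3 per line, limma adjusted p = 0.000823). ARNT, the shared partner, read 6.75, 6.82 and 7.15 in PC9 and 7.03, 6.94 and 7.15 in PC9/gef. These arrays overlapped and the change of 0.14 (95% confidence interval -0.22 to 0.49) did not pass the test (limma adjusted p = 0.451). Of the 7 ARNT probe sets, 3 were at background level, and the other 4 had changes from -0.07 to 0.78 that did not pass. The one with 0.78 was dim (means 3.04 and 3.83) and did not overlap between the lines. With the mean over all probe sets, ARNT was called higher (log2 change 0.14, limma adjusted p = 0.0472).

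Of the hydroxylases, HIF1AN rose and EGLN3 fell. HIF1AN read 7.86, 7.77 and 7.77 in PC9 and 8.17, 8.17 and 8.10 in PC9/gef. It was 1.27-fold higher (log2 change 0.35, SE 0.0374, limma adjusted p = 0.00393), with no overlap between the lines. A second HIF1AN probe set also rose, by 0.27, while the other one, with a change of -0.06, did not pass the test.

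EGLN3, the prolyl hydroxylase known for its strong induction by HIF, read 4.97, 5.43 and 4.75 in PC9 and 4.25, 3.62 and 3.59 in PC9/gef. Every PC9/gef array was below every PC9 array, and EGLN3 was 2.34-fold lower (log2 change -1.23, SE 0.282, 95% confidence interval -1.98 to -0.47, limma adjusted p = 0.0365). This call was near the threshold. It was lost in limma without any of the 3 PC9 arrays (adjusted p 0.105, 0.0939 and 0.0642 without replicates 1, 2 and 3) and without PC9/gef replicates 2 or 3 (0.0848 and 0.112), and over probe sets the adjusted p was 0.0551. The second EGLN3 probe set, with means of 2.92 and 2.81 and overlapping lines, had a change of -0.11 that did not pass, and the mean over both probe sets changed by -0.67.

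EGLN1, the main prolyl hydroxylase of HIF in most cells, read 9.73, 9.81 and 9.78 in PC9 and 9.88, 9.85 and 9.83 in PC9/gef. The groups did not overlap, but the difference of 0.08 (95% confidence interval 0.01 to 0.14) missed the threshold (limma adjusted p = 0.0865). The other EGLN1 probe sets above background had changes of -0.04 and -0.18, with overlapping lines, and did not pass. EGLN2 read 2.18 on all 6 arrays, which is background level, from the 1 probe set annotated to it alone.

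**Figure D2:**
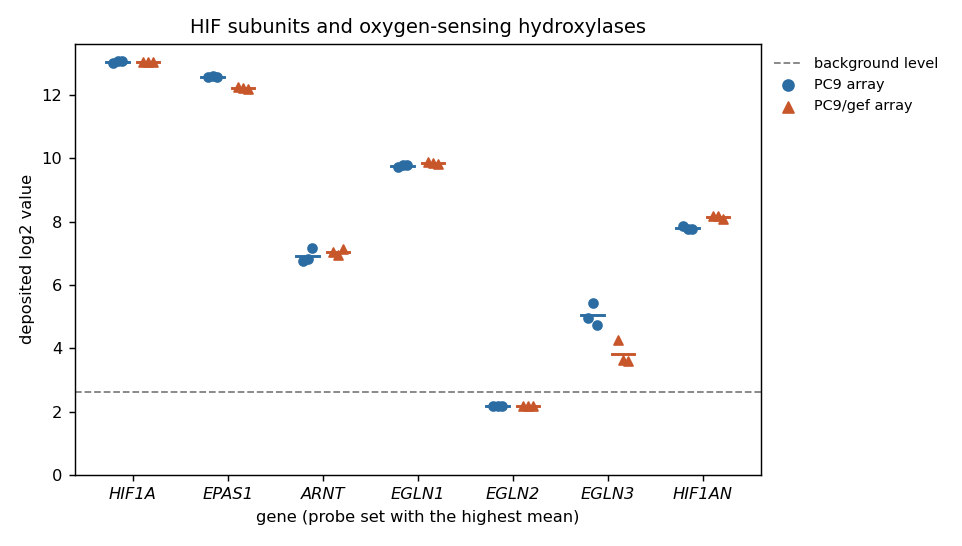
Deposited log2 values (y axis) of the HIF subunits and oxygen-sensing hydroxylases (x axis) on each PC9 (circles) and PC9/gef (triangles) array, with bars at the mean of 3 arrays and a dashed line at the background level of 2.61. HIF1A sits at 13.05 in both lines, EPAS1 and EGLN3 are lower and HIF1AN is higher in PC9/gef, and EGLN2 lies under the dashed line.

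Of 6 genes of mitochondrial and energy control, 4 rose, DDIT4 fell and PPP1R3C, a glycogen-targeting subunit of protein phosphatase, was at background level. PDK3, a kinase that inactivates the pyruvate dehydrogenase complex, read 4.85, 5.25 and 4.70 in PC9 and 7.55, 7.70 and 7.38 in PC9/gef. The lines stood far apart, and PDK3 was 6.09-fold higher in PC9/gef (log2 change 2.61, SE 0.18, limma adjusted p = 0.00107). It was the only listed gene over 2-fold higher. A second PDK3 probe set, at 2.15 in PC9 and so at background level, read 3.04 in PC9/gef and was also called higher. The other 3 probe sets of PDK3 had means between 3.17 and 4.21 and changes from 0.12 to 0.18, which did not pass the test, and the mean over all 5 changed by 0.79.

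PDK1, another kinase of the same complex, had a mean of 7.76 ± 0.04 (SD, n = 3) in PC9 and 8.30 ± 0.06 in PC9/gef. It was 1.45-fold higher (limma adjusted p = 0.00115), and its second probe set above background rose by 0.83. The mitophagy receptors BNIP3 and BNIP3L rose as well. BNIP3 was 1.22-fold higher (log2 change 0.29, SE 0.0383) and BNIP3L 1.38-fold higher (log2 change 0.46, SE 0.0363), with limma adjusted p = 0.00756 and 0.00152. Both BNIP3L probe sets were called, and the second BNIP3 probe set, with a change of 0.16, was not.

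DDIT4, a stress-induced inhibitor of the mTOR complex that drives growth, moved the other way. It read 10.20, 10.21 and 10.27 in PC9 and 8.96, 9.01 and 9.15 in PC9/gef. The arrays of each line lay close together and the lines did not overlap, and DDIT4 was 2.28-fold lower (log2 change -1.19, SE 0.0585, limma adjusted p = 0.000449). DDIT4 was measured by a single probe set.

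CA12, a membrane carbonic anhydrase that takes part in control of extracellular pH, read 5.84, 5.80 and 5.77 in PC9 and 6.69, 6.49 and 6.67 in PC9/gef. It was 1.75-fold higher without overlap (log2 change 0.81, SE 0.0642, limma adjusted p = 0.00157). Another CA12 probe set rose by 0.31, and one with a change of 0.56 and a larger spread (SE 0.262) did not pass the test. Of the rest of its 7 probe sets, one with means of 2.53 and 2.71 did not pass and 3 were at background level. Both called probe sets carry a suffix for probes that can match more than 1 transcript, and without such probe sets the call was lost (adjusted p = 0.185).

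**Figure D3:**
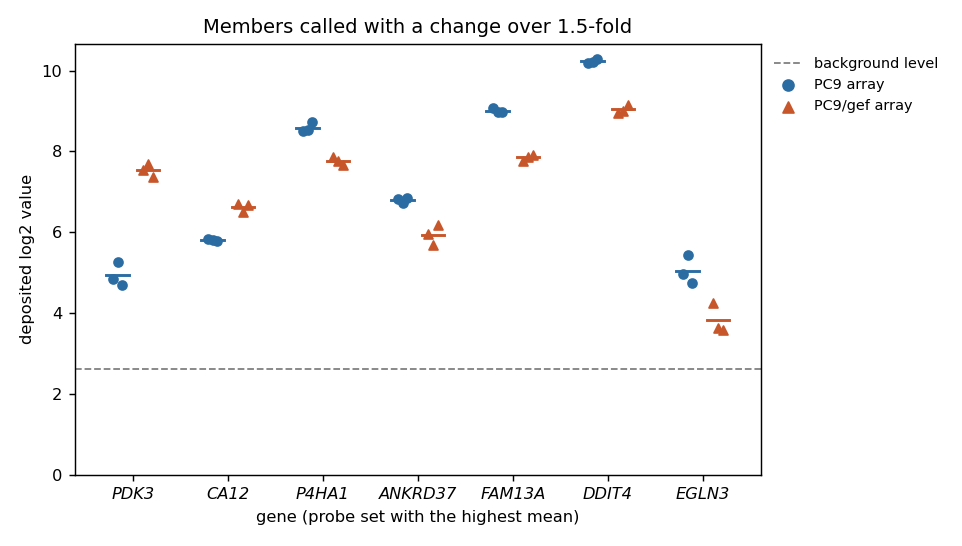
Deposited log2 values (y axis) on each array for the 7 genes that passed the test with a change over 1.5-fold (x axis), with bars at the mean of 3 arrays per line and a dashed line at the background level. Circles (PC9) and triangles (PC9/gef) do not overlap for any of the 7, which is no further evidence because the genes were picked by that test. Only PDK3 and CA12 are higher in PC9/gef.

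Enzymes of collagen and of protein folding did not move together: 1 of 6 rose, 2 fell and 3 did not pass the test. P4HA1, a catalytic subunit of collagen prolyl hydroxylase, read 8.50, 8.52 and 8.73 in PC9 and 7.85, 7.77 and 7.66 in PC9/gef. It was 1.77-fold lower with no overlap between the lines (log2 change -0.83, SE 0.0898, limma adjusted p = 0.00399). P4HA2, the alternative catalytic subunit, was 1.06-fold higher (log2 change 0.08, SE 0.00885, limma adjusted p = 0.00409), a small shift between tightly spaced arrays. The other 2 P4HA2 probe sets did not pass. One had a mean of 7.21 in both lines and a change of 0.0003, and the dimmer one a change of -0.04. The second P4HA1 probe set was at background level.

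LOX, which cross-links collagen outside the cell, had a mean of 5.26 ± 0.15 (SD, n = 3) in PC9 and 4.70 ± 0.18 in PC9/gef. The fall of 0.57 (1.48-fold, limma adjusted p = 0.0356) lost its call without any array but PC9/gef replicate 1, with adjusted p from 0.0554 to 0.112 without each of the other 5, and over probe sets its adjusted p was 0.0542. Its relative LOXL2 (log2 change 0.16, limma adjusted p = 0.063), the collagen lysyl hydroxylase PLOD1 (-0.03, adjusted p = 0.607) and the oxidase of the endoplasmic reticulum ERO1A (-0.09, adjusted p = 0.442) did not pass.

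The test called 1 of 4 secreted factors, with 2 more expressed and 1 at background level. VEGFA, the main angiogenic growth factor, was 1.06-fold lower (10.17 ± 0.02 in PC9 and 10.08 ± 0.01 in PC9/gef, SD, n = 3, limma adjusted p = 0.00859). Its other 3 probe sets had changes from -0.25 to 0.14 and did not pass. For the vasodilator peptide ADM, the change of 0.17 just missed the threshold (limma adjusted p = 0.0504), and for the glycoprotein hormone STC1 it was 0.04 (95% confidence interval -0.12 to 0.20). ANGPTL4, an inhibitor of lipoprotein lipase, was at background level in both lines.

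Among chromatin enzymes with a JmjC domain, KDM3A rose, JMJD6 fell and KDM4B did not pass the test. The histone demethylase KDM3A was 1.41-fold higher (log2 change 0.49, SE 0.0793, limma adjusted p = 0.0134), a call lost without any of the PC9 arrays (adjusted p from 0.0509 to 0.0573). The lysyl hydroxylase JMJD6 was 1.24-fold lower (log2 change -0.31, SE 0.0317, adjusted p = 0.00338). Of the transcription regulators, MXI1, an antagonist of MYC, was 1.42-fold higher (8.23 ± 0.01 in PC9 and 8.74 ± 0.05 in PC9/gef, adjusted p = 0.000476). CITED2, which competes with HIF for its coactivators, had a change of 0.31 that did not pass (adjusted p = 0.0983), while another of its probe sets rose by 0.44. ZNF395 (change 0.07, adjusted p = 0.494) did not pass, and all 8 probe sets of the nuclear receptor RORA were at background level.

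The 4 remaining targets were all called, 3 of them lower. FAM13A read 9.07, 8.97 and 8.98 in PC9 and 7.77, 7.86 and 7.91 in PC9/gef. It was 2.23-fold lower with no overlap (log2 change -1.16, SE 0.0493, limma adjusted p = 0.000328). A second probe set fell by 1.15 on the log2 scale. The other 3 FAM13A probe sets were dimmer, with PC9 means from 2.71 to 4.58, and their changes of -0.58, -0.18 and -0.03 did not pass. Both called probe sets carry the suffix for probes that can match more than 1 transcript, and FAM13A read without such probe sets had a change of -0.18 (adjusted p = 0.313).

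ANKRD37, an ankyrin repeat protein, read 6.82, 6.71 and 6.85 in PC9 and 5.96, 5.69 and 6.17 in PC9/gef. It was 1.80-fold lower without overlap (log2 change -0.85, SE 0.138, limma adjusted p = 0.0138), and missed the threshold when PC9 replicate 1, PC9 replicate 3 or PC9/gef replicate 1 was left out (adjusted p = 0.0579, 0.0566 and 0.0518). RAB20, a small GTPase of vesicle traffic, was 1.46-fold lower (log2 change -0.55, SE 0.0351, adjusted p = 0.000885). NDRG1, a stress-responsive gene often used as a hypoxia marker, was 1.24-fold higher (log2 change 0.31, SE 0.0647, adjusted p = 0.0296), a call lost without any array but PC9 replicate 1.

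In all, 4 of the 35 genes changed over 2-fold, the size by which the study defined differential expression: PDK3 was higher and EGLN3, DDIT4 and FAM13A were lower, where 2.88% of all genes changed by that much, 1.54% higher and 1.34% lower. With the mean over a gene's probe sets, 0 were over 2-fold higher and only DDIT4 was lower. Without probe sets whose suffix marks probes for more than 1 transcript, 0 were over 2-fold lower; DDIT4 and EGLN3 then had no probe set left. With a change over 1.5-fold and a call there were 7, namely PDK3, CA12, P4HA1, ANKRD37, FAM13A, DDIT4 and EGLN3, against 7.87% of all genes. Of these, 5 were lower.

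Different probe sets of a gene did not always move alike. Of the 108 probe sets, 16 were called higher and 9 lower with p adjusted over all probe sets (15.3% of all probe sets were called), 42 did not pass and 41 were at background level. Of 18 genes with at least 2 probe sets above background, 10 had changes of 1 sign and 8 of both signs. In each of the 6 genes with at least 2 called probe sets, BNIP3L, CA12, FAM13A, HIF1AN, PDK1 and PDK3, all called probe sets moved the same way. Probe sets of a gene share its transcript and are not replicates.

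**Figure D4:**
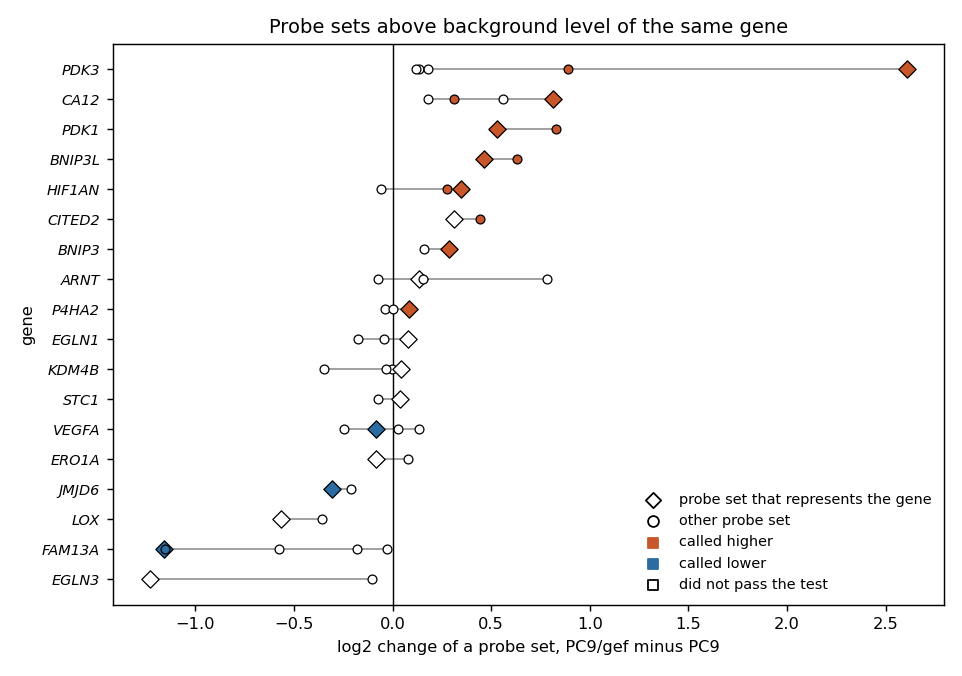
Log2 change (PC9/gef minus PC9, x axis) of each probe set above background level for the 18 genes with at least 2 of them (y axis), with diamonds for the probe set that represents the gene and colour for a call over all probe sets. PDK3 spans 0.12 to 2.61 and FAM13A -1.16 to -0.03, and the diamonds of EGLN3 and LOX are open because their p adjusted over probe sets was above the threshold.

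The other genes of the pathway were read from lists made by name from general knowledge. Of 12 genes that control HIF besides those above, 2 were higher, 2 lower and 8 did not pass. Thus 33.3% were called, against 27.9% of all genes and 45.6% of genes above background. The higher ones were COMMD1 (log2 change 0.30, adjusted p = 0.0122), a HIF1A-binding protein, and ELOB (0.21, adjusted p = 0.000307), an elongin of the VHL ligase. P4HTM, a transmembrane prolyl hydroxylase also described to act on HIF, was 1.82-fold lower (log2 change -0.87, adjusted p = 0.00383), and the coactivator EP300 was 1.13-fold lower (adjusted p = 0.027). VHL itself, with a change of -0.23 (95% confidence interval -0.52 to 0.07), did not pass (adjusted p = 0.186).

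Of 23 further hypoxia-induced genes outside glycolysis, 4 were higher, 7 lower, 9 did not pass and 3 were at background level. The circadian repressor BHLHE41 was 2.36-fold lower (log2 change -1.24, adjusted p = 0.000282). Its change was -0.50 in the mean over its probe sets and -0.0086, which did not pass, without probe sets of that suffix. HILPDA, which inhibits lipid droplet breakdown, and TFRC, the transferrin receptor, fell by 0.51 and 0.44, and the glycogen branching enzyme GBE1 rose by 0.47. Of 18 glycolytic HIF targets, 6 were higher, 5 lower and 7 did not pass, led by the glucose transporter SLC2A3, 5.18-fold lower (log2 change -2.37, adjusted p = 0.000326). HK2, a hexokinase, fell by 0.53, and PFKP, a phosphofructokinase, rose by 0.54. Of these 23 and 18 genes, 47.8% and 61.1% were called, against 27.9% of all genes and 45.6% of genes above background. The 47.8% counts the 3 genes at background level, which cannot be called, so it is not on the same footing as the 45.6%. These lists, like the 35 genes, held calls in both directions.

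The cells were checked against markers of their labelled type. All 6 epithelial markers were above background (means from 11.62 to 15.20 in PC9), but 3 of the 4 lung adenocarcinoma markers, NKX2-1, NAPSA and SFTPC, were at background level in both lines, and SFTPB stood at 4.31 and 4.33. All 4 leukocyte markers and 4 of 5 endothelial markers were at background. Of 6 fibroblast markers, 5 were at background, and COL1A1 was higher in PC9/gef (7.94 against 8.46). The part of COL1A1-expressing cells in the results for P4HA1 and LOX was not tested. In RNA from whole cultures, fewer cells with a transcript and less of it per cell cannot be told apart. Correlations over all probe sets were at least 0.999 between arrays of a line and at most 0.994 between lines, so no array stood apart, and the number of arrays limits the precision of every value.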

How the data were processed

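Affymetrix arrays of 3 PC9 and 3 PC9/gef samples were used, grouped by the sample labels. The authors deposited 1 table of log2 values per probe set, corrected for background and normalized between arrays (RMA in the submitters' notes; GC-RMA, run in GeneSpring GX, in the supplementary methods). A version or chip definition is not given in the sources used here. Values ran from 1.65 to 15.72 and were used as deposited. Because the sorted values differ by at most 0.02 between arrays, changes are relative to the rest of an array.

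After removal of 62 controls, 54613 probe sets were tested, of which 41091 name 1 gene, 11721 none and 1801 more than 1 (in 5 cases a listed gene and another). Each gene was read from its probe set with the highest mean. Background level was the value that 95% of 107 olfactory receptor probe sets did not exceed in their mean (their 95th percentile), and 53.0% of values lay at or below it on each array. The lines were compared in limma 3.58.1 (R 4.3.3, empirical Bayes, trend and robust off) over all probe sets, with Benjamini-Hochberg adjustment over genes and, separately, over probe sets. The code was tested on simulated data with few changed probe sets, where only large changes in brighter probe sets had to be recovered. That test does not bear on small changes. An exact permutation test of 3 against 3 arrays cannot go below p = 0.1 and was not used. Values on every array are given for the HIF subunits and hydroxylases and for called genes over 1.5-fold; of each other list, up to 4 called genes with the largest change are named. The genes and lists were chosen with earlier results of these data known. Alternatives were quantile normalization, median centring, other moderation, a dim probe set filter, a replicate block, omission of each array, the methods' t-test, gene means, leaving out probe sets with the suffix _x_at or _s_at, and other background percentiles.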

Additional observations from a re-analysis of the deposited data

How the results depend on the processing

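In 438 of 476 comparisons of a listed gene with an alternative, the side of the threshold stayed; 31 lost the call and 7 gained it. The sign changed in 11, none of them called in either setting. Quantile normalization and median centring moved no count of calls by over 1.5 times. They could hardly do so, because the sorted deposited values already differed by at most 0.02 between arrays. These settings, and the genes at background level, which cannot be called there, are among the 476 comparisons. The methods' t-test called 10 listed genes higher and 10 lower after Benjamini-Hochberg adjustment, and 13 and 10 at its own unadjusted threshold. Over all 19775 genes it called 2679 higher and 2523 lower after adjustment, and 3325 and 3409 without it.

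The replicate numbers did not pair the samples (correlations of deviations -0.026, 0.015 and 0.048). With a replicate block, all genes gave 1830 higher and 1692 lower calls, HIF control genes 1 and 0, other hypoxia-induced genes 4 lower, and listed probe sets 9 higher and 5 lower; EGLN3, KDM3A, LOX, P4HA1 and P4HA2 lost their calls (adjusted p = 0.124, 0.0877, 0.0937, 0.0606 and 0.0608).

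Without 1 array at a time, all genes gave 2187 to 2584 higher and 2030 to 2826 lower calls, against 2851 and 2658 with every array. Listed genes called ranged from 8 to 9 higher and 7 to 9 lower. Their median change ranged from 0.00049 (without PC9/gef replicate 1) to 0.055, and their probe sets from 9 to 14 higher. HIF control genes ranged from 1 to 2 in each direction, other hypoxia-induced genes from 4 to 6 lower, and glycolytic targets from 3 to 5 lower.

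When probe sets with the suffix _x_at or _s_at were dropped, all genes gave 1864 higher and 1796 lower calls. Listed genes gave 4 lower calls, with 0 over 2-fold lower and a median of 0.076. HIF control genes gave 1 higher and 0 lower, other hypoxia-induced genes 4 lower, and glycolytic targets 3 higher and 2 lower. P4HA1 was left with a probe set at background level, and BHLHE41 did not pass (limma adjusted p = 0.0919). With the mean over a gene's probe sets, 0 listed genes were over 2-fold higher and 1 lower, HIF control genes gave 1 lower call, and the median was -0.00057. With dim probe sets left out, the median was 0.067. ADM passed with other moderation, the filter on dim probe sets or the block (adjusted p = 0.0375, 0.0249 and 0.0227). ARNT and CITED2 passed in limma with the mean over a gene's probe sets (adjusted p = 0.0472 and 0.0173). The cause of these shifts was not tested, beyond fewer arrays or probe sets where these were left out. The 4 genes at background level stayed there at the other percentiles.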

Other observations

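The genes next to the listed genes over 2-fold were read by their order in the RefSeq table, 5 measured genes on each side. For scale, 14.4% of all genes measured were called higher and 13.4% lower, and 45.6% of genes above background were called. DDIT4 and P4HA1, both lower in PC9/gef, lie on chromosome 10 with 4 measured genes between them. One of these, MCU, the pore of the mitochondrial calcium uniporter, was also lower (log2 change -0.74). Of the rest between them, DNAJB12 (0.03) did not pass the test, and OIT3 and PLA2G12B were at background level. Around DDIT4, 3 of 10 neighbours were higher, 3 lower, P4HA1 and ASCC1 (-0.32) among them, 1 did not pass and 3 were at background level, with a median change of 0.015.

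The 10 neighbours of PDK3 on chromosome X held 1 higher and no lower call, with a median change of 0.023. For FAM13A on chromosome 4, 2 of 10 neighbours were higher and none was lower. For EGLN3 on chromosome 14, 3 were higher and 1 was lower.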
